A study of Homo sapiens with 6 samples.

Results

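The genes described here are the 7 subunits of respiratory complex I that are encoded in mitochondrial DNA (ND1, ND2, ND3, ND4, ND4L, ND5 and ND6) together with MTND2P28, a nuclear copy of ND2. They were chosen by their Ensembl identifiers, and all 8 were among the 16834 genes that remained after the authors' filter on low read numbers. RNA was sequenced from immunoprecipitations (IPs) of the HEK-293T human embryonic kidney cell line, grown asynchronously. All 6 libraries came from Flp-In cells with a single inserted copy of ccTaggedRP, a bicistronic construct under the CAG promoter that encodes Flag-RPL10a-hCdt and HA-RPL10a-hGem, tagged versions of a protein of the large cytosolic ribosomal subunit. In 3 libraries RNA was recovered with a Flag antibody (Flag-IP) and in 3 with an HA antibody (HA-IP), to compare phases of the cell cycle. The CDT1 degron has the Flag protein broken down from late S until mitosis ends. The authors expected the HA protein, which carries the Geminin degron, to be enriched in G2 and mitosis. The groups thus differed in the antibody and the tagged protein and shared the cell line and the construct. No input library or untagged control is part of the comparison, so the background of each IP is not known.

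Complex I, NADH:ubiquinone oxidoreductase, passes electrons from NADH to ubiquinone and pumps protons across the inner mitochondrial membrane. Its peripheral arm, built of nuclear-encoded proteins, holds the flavin and the iron-sulfur clusters, and the ND proteins form the core of its membrane arm. The ND mRNAs are transcribed from mitochondrial DNA as parts of long polycistronic RNAs, are cut free at the tRNAs between them, and are translated inside the organelle by mitochondrial ribosomes, which contain other proteins than the cytosolic ribosomes that RPL10a joins.

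The sequences of ND2 and MTND2P28 show how far reads can be assigned to one or the other. ND2 (ENSG00000198763) lies on the plus strand of the mitochondrial chromosome of GRCh38, from base 4470 to base 5511, in GENCODE release 44. MTND2P28 (ENSG00000225630), an unprocessed pseudogene, lies on the plus strand of chromosome 1 from 629640 to 630683. Over 1042 aligned bases the copies differed at 17 positions, an identity of 98.4%, with no gap. The 100 aligned bases with the most differences are printed with the 5 differing bases in capitals, ND2 from chrM:4892-4991 and MTND2P28 from chr1:630062-630161.
ND2: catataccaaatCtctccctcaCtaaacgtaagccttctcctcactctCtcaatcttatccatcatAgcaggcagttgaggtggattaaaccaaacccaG
MTND2P28: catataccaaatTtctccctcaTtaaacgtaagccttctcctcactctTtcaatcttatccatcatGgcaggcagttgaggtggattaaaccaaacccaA

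Elsewhere the copies ran identical for up to 266 bases. Of the 895 stretches of 150 bases, the read length, that fit in MTND2P28, 140 (15.6%) also occur without any difference in mitochondrial DNA, and such a read cannot be assigned by its own sequence, though its mate may differ. ND4L and ND4 also share sequence, since they are read from 1 mRNA in overlapping frames. The 67 bases of chrM:10730-10796 are printed with the 7 bases that belong to both genes in capitals.
ND4L/ND4 junction: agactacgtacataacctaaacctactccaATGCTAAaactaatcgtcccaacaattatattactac

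ND6 (ENSG00000198695) is the only ND gene on the minus strand (chrM, 14149 to 14673), and 0 bases separate it from ND5 (ENSG00000198786, 12337 to 14148). Whether strand was used in the counting is not given in the sources used here, so reads of ND6 and of the RNA opposite to it cannot be told apart. The other genes lie on the plus strand, ND1 (ENSG00000198888) from 3307 to 4262, ND3 (ENSG00000198840) from 10059 to 10404, ND4L (ENSG00000212907) from 10470 to 10766 and ND4 (ENSG00000198886) from 10760 to 12137.

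The 6 libraries held between 23174532 and 44134833 reads on the listed genes. The deposited values are normalized counts, the reads of a gene divided by a size factor for its library. HA-IPs were compared with Flag-IPs with limma on log2(normalized count + 1) over all 16834 genes, two-sided, with Benjamini-Hochberg adjustment, and a gene was called at an adjusted p of at most 0.05. Differences are HA-IP minus Flag-IP on this scale. Called were 1196 genes lower in the HA-IPs (7.10% of those tested) and 975 higher (5.79%), and the median difference of all genes was -0.0049. The lower genes made up 55.1% of the calls, and 77.0% after scaling to equal library totals. Nothing in the labels says that replicates came from separate cultures, so the p-values measure the spread between these libraries, which may be technical.

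All 7 ND genes were lower in the HA-IPs, by 0.72 to 0.99 on the log2 scale with a median of -0.78, and all 7 were called by limma, where 7.10% of all genes were called in that direction. MTND2P28 was lower by a similar amount on average but was not called. In each of the 8 genes every Flag-IP lay above every HA-IP, a separation in this direction that 16.1% of all genes showed. The separation was narrow, with the lowest Flag-IP between 1.06 and 1.19 times the highest HA-IP.

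ND5, ND4 and ND2 encode the antiporter-like subunits that are thought to carry protons through the membrane arm. The normalized count of ND5 was 29141, 21080 and 16923 for Flag-IP replicates 1, 2 and 3, against 11028, 13024 and 14386 for HA-IP replicates 1, 2 and 3. It was highest in Flag-IP replicate 1 and lowest in HA-IP replicate 1, and the groups did not overlap. ND5 fell by 0.78 on the log2 scale (standard error 0.16, adjusted p = 0.0093 from limma), the smallest adjusted p among the 8 genes, and its mean in the HA-IPs was 57.2% of that in the Flag-IPs.

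ND4 read at 26823, 14939 and 13176 normalized counts in Flag-IPs, against 8193, 9574 and 11113 for the HA-IPs, in the same order of replicates. Flag-IP replicate 1 stood 2.04 times above Flag-IP replicate 3, while the HA-IPs spread over a factor of 1.36. ND4 fell by 0.87 on the log2 scale (standard error 0.21, adjusted p = 0.019 from limma).

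ND2 read at 12539, 7147 and 6491 normalized counts in Flag-IPs, against 4492, 4832 and 5769 for the HA-IPs. Here too Flag-IP replicate 1 stood apart from the other Flag-IPs, and the groups did not overlap. ND2 fell by 0.74 (standard error 0.19, adjusted p = 0.028 from limma). Of the reads counted on both copies, MTND2P28 held 0.207% to 0.459%, and the part of reads assigned to the wrong copy was not tested.

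ND1 and ND3 lie near the site where the membrane arm meets the peripheral arm and ubiquinone is reduced. ND1 read at 15625, 9332 and 8381 normalized counts in Flag-IPs, against 5703, 6381 and 7484 for the HA-IPs. Its HA-IPs lay close together, with the highest 1.31 times the lowest, and the Flag-IPs spread over a factor of 1.86. ND1 fell by 0.72 (standard error 0.18, adjusted p = 0.025 from limma).

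ND3, one of the shortest ND genes with 346 bases, read at 3178, 2167 and 2055 normalized counts in Flag-IPs, against 1009, 1604 and 1930 for the HA-IPs. HA-IP replicate 1 lay well below the other HA-IPs, and the gap between HA-IP replicate 3 and Flag-IP replicate 3 was the smallest among the 7 ND genes. ND3 fell by 0.73 (standard error 0.21, adjusted p = 0.042 from limma), the value closest to the threshold.

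ND4L and ND6 are small hydrophobic subunits between ND1 and the antiporter-like subunits. ND4L read at 5914, 3173 and 2608 normalized counts in Flag-IPs, against 1442, 1869 and 2310 for the HA-IPs. It had the largest difference of the 8 genes, a fall of 0.99 (standard error 0.24, adjusted p = 0.023 from limma), and its Flag-IPs also spread most, over a factor of 2.27.

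ND6 read at 6728, 4102 and 3638 normalized counts in Flag-IPs, against 2056, 2861 and 3390 for the HA-IPs. The groups did not overlap, though the nearest libraries, Flag-IP replicate 3 and HA-IP replicate 3, differed by a factor of only 1.07. ND6 fell by 0.78 (standard error 0.21, adjusted p = 0.032 from limma).

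MTND2P28 is a fragment of mitochondrial DNA that was copied into chromosome 1. It read at 26.0, 33.0 and 22.1 normalized counts in Flag-IPs, against 11.3, 20.8 and 18.7 for the HA-IPs, from 20, 31 and 24 reads and 16, 21 and 17 reads. The difference of -0.67 had a standard error of 0.34, and it did not pass the test (adjusted p = 0.23 from limma). The parts of the low depth, 16 to 31 reads per library, and of the spread between libraries in this missing call were not tested.

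**Figure D1:**
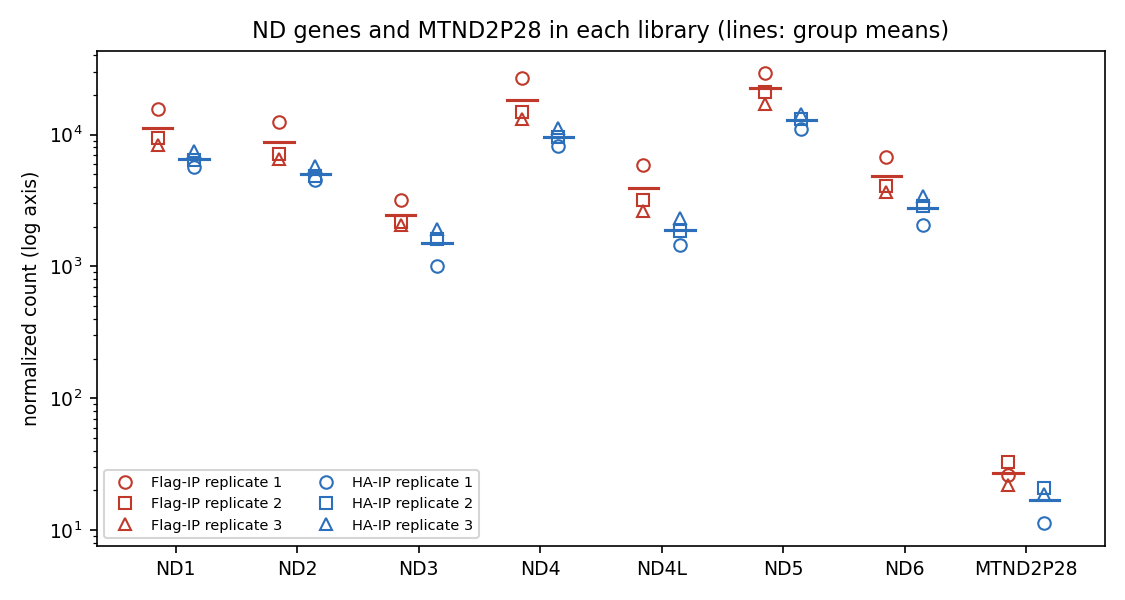
Normalized counts on a log axis for each ND gene and MTND2P28, with 1 symbol per library (red, Flag-IP; blue, HA-IP) and a line at each group mean. Flag-IP replicate 1 was the highest library and HA-IP replicate 1 the lowest for all 7 ND genes, and in each of the 8 genes every Flag-IP lay above every HA-IP.

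For all 7 ND genes the libraries came in the same order, Flag-IP replicates 1, 2 and 3, then HA-IP replicates 3, 2 and 1. The calls depended on which libraries and which variance model entered the fit. edgeR on the recovered reads called all 7 ND genes, against 7.31% of all genes lower in the HA-IPs. DESeq2 on the same reads called only ND5 (adjusted p = 0.017 from DESeq2), also against 7.31%, and gave the other 6 adjusted p-values from 0.068 to 0.16. limma with 1 prior variance for all levels of expression called 0 of the 7, against 1.08% of all genes. Of the 7, 6 had an unadjusted p under 0.05, as did 3883 of all 16834 genes.

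Without HA-IP replicate 1, the lowest library, 0 of the 7 were called by limma, against 3.30% of all genes. All 7 had an unadjusted p under 0.05, as did 3608 of all 16834 genes. Without HA-IP replicate 2 only ND5 was called (3.75% of all genes), and without Flag-IP replicate 2 only ND4 and ND5 (3.07%). Without Flag-IP replicate 1, the highest library, the median difference of the 7 shrank to -0.53, while 6 of the 7, all but ND3, were called, against 6.75% of all genes. ND5 was called in 5 of the 6 fits that leave out 1 library, ND4 in 4 and ND3 in 2. The difference was negative for all 8 genes in all 6 fits, as it had to be, since every Flag-IP lay above every HA-IP.

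**Figure D2:**
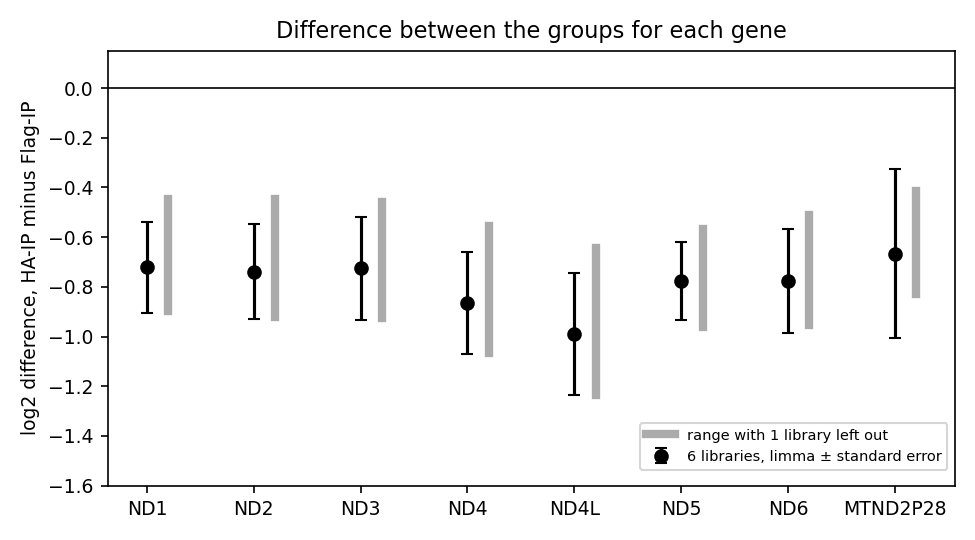
Log2 difference of HA-IP minus Flag-IP for each gene (points, limma on 6 libraries, bars 1 standard error), beside the range of the difference when 1 library is left out (grey). The differences of the 7 ND genes lay between -0.99 and -0.72. No range reached 0, which none could, since every Flag-IP lay above every HA-IP.

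Levels of different genes were compared per kilobase of gene. In Flag-IPs the means per kilobase ran from 13289 ± 5386 normalized counts for ND4 to 7129 ± 1787 for ND3 (SD, n = 3 each). In the HA-IPs they ran from 7071 ± 932 for ND5 to 4377 ± 1349 for ND3 (SD, n = 3 each). ND4, ND4L, ND5 and ND1 formed an upper group whose order changed between libraries, and ND6, ND2 and ND3 a lower one.

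ND1, the lowest of the upper group on average, was above ND6, the highest of the lower group, in 6 of 6 libraries, by a factor of 1.21 to 1.52. ND4 exceeded ND4L in 5 of 6 libraries but by a factor of at most 1.22. ND4L exceeded ND5 only in Flag-IP replicate 1. Within the lower group, ND6 exceeded ND2 in 5 of 6 libraries and ND2 exceeded ND3 in 5 of 6, with HA-IP replicate 1 the exception for the former and HA-IP replicate 3 for the latter. The values of ND6 may hold reads of the RNA opposite to it, so its place in this order is uncertain. ND4L and ND3 are the shortest of the 7, with 297 and 346 bases, and ND4L shares 7 bases with ND4. The part of gene length and of shared bases in the values per kilobase was not tested.

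The make-up of the ND reads differed little between the libraries. ND5 took 29.2% to 34.0% of the reads on the 7 genes, ND4 took 23.8% to 26.8% and ND1 took 15.1% to 16.8%. ND2 accounted for 11.5% to 13.2%, ND6 for 6.06% to 7.31%, ND4L for 4.25% to 5.92% and ND3 for 2.97% to 4.16%. ND4L and ND3 thus varied most in relative terms. ND4L had its highest share in Flag-IP replicate 1 and its lowest in HA-IP replicate 1.

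A ratio of 2 genes within a library does not depend on how libraries are scaled, and 4 such ratios were compared with an exact two-sided permutation test, which cannot give a p below 0.1 with 3 against 3 libraries. ND4L stood at 0.220, 0.212 and 0.198 times ND4 in Flag-IPs, against 0.176, 0.195 and 0.208 times for the HA-IPs. The log2 ratio was -2.25 ± 0.08 in the Flag-IPs and -2.38 ± 0.12 in the HA-IPs (SD, n = 3 each), and the groups overlapped (exact permutation p = 0.2, adjusted p = 0.8 over the 4 ratios). This pair sits on 1 mRNA, with the overlap printed above.

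ND6 stood at 0.231, 0.195 and 0.215 times ND5 in Flag-IPs, against 0.186, 0.220 and 0.236 times for the HA-IPs, so the lowest and the highest value of this opposite-strand pair were both HA-IPs (difference of the mean log2 ratios -0.00055, exact permutation p = 1.0, adjusted p = 1.0). ND3 stood at 0.118, 0.145 and 0.156 times ND4 in Flag-IPs, against 0.123, 0.168 and 0.174 times for the HA-IPs. The difference of the mean log2 ratios was 0.14 (exact permutation p = 0.5, adjusted p = 1.0). With 1 library left out, the difference ran from 0.025 to 0.30 for ND3 to ND4 and from -0.18 to -0.060 for ND4L to ND4. The groups overlapped in all 3 ratios, and since 3 against 3 libraries cannot give a p below 0.1, the test could not have called a change of any size.

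**Figure D3:**
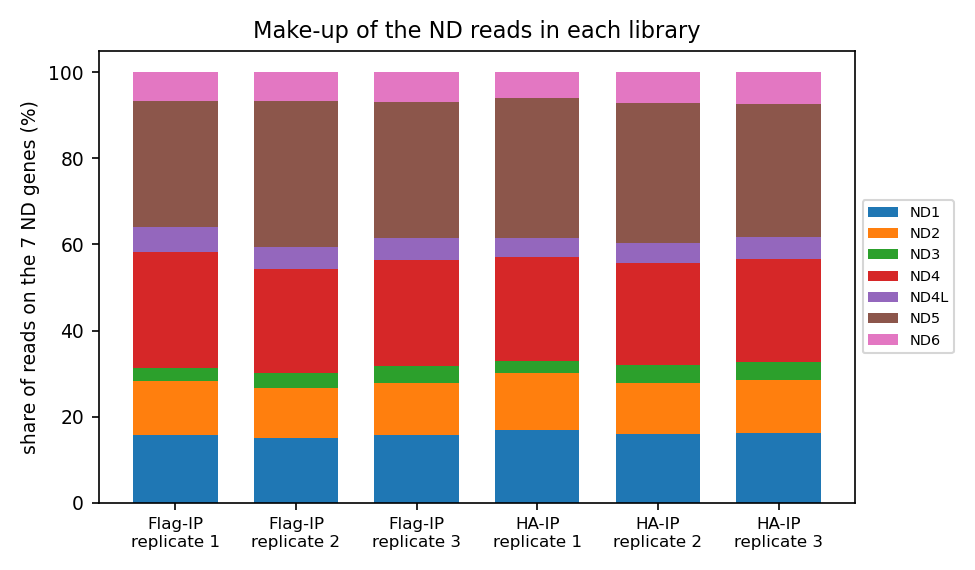
Share of each ND gene among the reads on the 7 ND genes (percent, stacked bars from 0) in each of the 6 libraries. ND5 and ND4 are the largest parts in each library, and the share of each gene changes little from library to library.

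MTND2P28 stood at 0.00207, 0.00461 and 0.00341 times ND2 in Flag-IPs, against 0.00251, 0.00430 and 0.00325 times for the HA-IPs. The log2 ratio of the pseudogene to ND2 differed by 0.036 between the groups, with overlap (exact permutation p = 1.0, adjusted p = 1.0). As a share of the reads of both, MTND2P28 ran from 0.207% (exact Clopper-Pearson 95% confidence interval 0.126% to 0.319%) in Flag-IP replicate 1 to 0.459% (0.312% to 0.651%) in Flag-IP replicate 2. These intervals cover counting error only.

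MTCO1P12 and MTATP6P1, copies of COX1 and ATP6, lie near MTND2P28 on chromosome 1, starting at bases 631074 and 633696. MTCO1P12 is 98.6% identical to COX1 and took 0.189% to 0.376% of the reads of both, near the share of MTND2P28. MTATP6P1 is 98.5% identical to ATP6 and took 3.46% to 6.11%. None of its 532 stretches of 150 bases occurs without difference in mitochondrial DNA. MTCO1P12 was called lower in the HA-IPs (log2 difference -1.07, standard error 0.23, adjusted p = 0.013 from limma), and MTATP6P1 was not (-0.77, standard error 0.24, adjusted p = 0.061 from limma). Reads of all these copies are uncertain, since the counting could split them with the mitochondrial genes.

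Together the 7 ND genes took 0.332%, 0.206% and 0.173% of the listed reads for Flag-IP replicates 1, 2 and 3, against 0.109%, 0.127% and 0.146% for HA-IP replicates 1, 2 and 3. The exact Clopper-Pearson 95% confidence intervals were narrow, for example 0.330% to 0.334% in Flag-IP replicate 1, so counting error is far below the spread between libraries. The ND genes made up 36.3% to 40.4% of the reads on the 28 listed genes of mitochondrial DNA. Depth moved with these shares at both ends, since Flag-IP replicate 1 had the fewest reads and HA-IP replicate 1 the most, and its part in the result was not tested. In bulk IPs, fewer cells with these RNAs and less of them per cell cannot be told apart.

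Most listed heart muscle genes, chosen as markers of a cell type other than this kidney line, were also lower in the HA-IPs. Of 32 such genes 24 were listed, and 23 of these were called lower in the HA-IPs by limma, where 7.10% of all genes were. The gene lists were chosen with earlier results of these data known, so this count is a description only. The median difference of the 24 was -4.14. They took 0.702%, 0.513% and 0.329% of the Flag-IP reads, against 0.0144%, 0.0101% and 0.0664% of the HA-IP reads. Their Flag-IPs came in the order of the ND genes, and HA-IP replicate 3 was again the highest HA-IP. The lowest library was HA-IP replicate 2, whereas for the ND genes it was HA-IP replicate 1. None of the 24 was at 0 in all HA-IPs, and DES, an intermediate filament protein of muscle, had means of 4739 and 156 normalized counts in the groups (adjusted p = 0.00040 from limma). RYR2 had a smaller difference of -0.87, with means of 1328 and 720 normalized counts in the groups (adjusted p = 0.0015 from limma). NKX2-5, a heart transcription factor, had means of 988 and 971 normalized counts in the groups. Its difference was -0.0046, and it was the 1 that was not called. The part of these transcripts in the ND result was not tested.

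Markers of other cell types were fewer and lower. Of the listed ones, limma called 6 of 7 fibroblast genes and 4 of 5 endothelium genes lower in the HA-IPs, where 7.10% of all genes were. The fibroblast differences ran from -4.82 for COL1A2 to 0.14 for PDGFRA, which was not called (adjusted p = 0.51 from limma). FBLN1, called lower, had means of 1424 and 1214 normalized counts in the Flag-IPs and HA-IPs (log2 difference -0.23). The only listed blood gene, PTPRC, was also called lower. The fibroblast genes took at most 0.0294% of the reads, the endothelium genes at most 0.00085% and PTPRC at most 0.00029%. All 7 marker genes of HEK293 cells were listed, and 6 of them were not called. The median difference of the 7 was 0.0037, and 3 of the 7 differences were negative. KRT8 and KRT18 had differences of 0.13 and 0.10 and were not called (adjusted p = 0.083 and 0.23 from limma). VIM had means of 24992 and 24531 normalized counts in the Flag-IPs and HA-IPs. PAX2, a kidney transcription factor, was lower in the HA-IPs (log2 difference -0.79, adjusted p = 0.047 from limma).

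**Figure D4:**
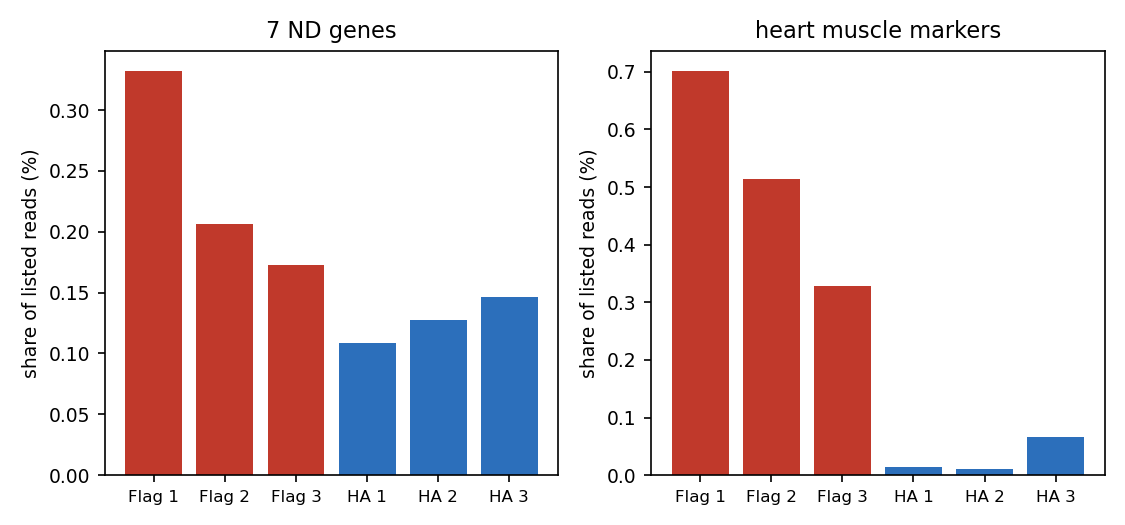
Share of all listed reads (percent, bars from 0, separate scales) on the 7 ND genes (left) and on 24 heart muscle genes (right) in each library, Flag-IPs in red and HA-IPs in blue. In both panels Flag-IP replicate 1 is highest, and HA-IP replicate 3 is the highest HA-IP. The lowest library is HA-IP replicate 1 on the left and HA-IP replicate 2 on the right.

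The 6 other listed mRNAs of mitochondrial DNA were all called lower in the HA-IPs too by limma, where 7.10% of all genes were, with a median difference of -0.83. The median was -0.50 without Flag-IP replicate 1. CYTB, the mitochondrial subunit of complex III, fell by 0.75 (standard error 0.18, adjusted p = 0.019 from limma). COX1, COX2 and COX3, subunits of cytochrome c oxidase, had differences of -0.84, -0.82 and -0.88 (adjusted p = 0.023, 0.032 and 0.029 from limma). ATP6 and ATP8 of the ATP synthase differed by -0.83 and -0.88 (limma adjusted p = 0.028 and 0.045). The differences of the 7 ND genes, from -0.99 to -0.72, span those of the other 6. edgeR called all 6 and DESeq2 called 0, while limma called 0 without HA-IP replicate 1 and 0 without HA-IP replicate 2. In each of these cases all 6 had an unadjusted p under 0.05, as did 3608 to 4556 of all 16834 genes.

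The nuclear partners of the ND proteins had smaller differences. Of the 37 nuclear complex I subunits, all listed, 7 were called lower in the HA-IPs by limma, where 7.10% of all genes were, and 0 higher, where 5.79% were. The other 30 were not called, and the median difference was -0.23. Among the 7 core subunits, the iron-sulfur proteins NDUFS7 and NDUFS8 had differences of -0.43 and -0.45 (adjusted p = 0.0050 and 0.027 from limma). NDUFS1, which carries several iron-sulfur clusters, had 7771 ± 198 normalized counts in the Flag-IPs and 8354 ± 415 in the HA-IPs (SD, n = 3 each, log2 difference 0.10, adjusted p = 0.21 from limma). NDUFV2 had a larger difference of -0.48 and was not called (adjusted p = 0.071 from limma).

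Of the 30 accessory subunits, NDUFA6, NDUFA13, NDUFB4, NDUFB7 and NDUFB10 were called lower in the HA-IPs by limma. NDUFA6 read at 1066, 1012 and 970 normalized counts in Flag-IPs, against 607, 662 and 733 for the HA-IPs. It fell by 0.61 (standard error 0.081, adjusted p = 0.0011 from limma) and was called with each library left out in turn, which no ND gene was. NDUFC1 and NDUFA9, with differences of -0.031 and -0.016, were not called. The median difference of the 30 was -0.23, and it was -0.11 without Flag-IP replicate 1 and -0.14 without HA-IP replicate 1. Without Flag-IP replicate 2, 2 accessory subunits were called, where 3.68% of all genes were called in either direction. The count was 9 without Flag-IP replicate 3 (18.2% of all genes) and 3 without HA-IP replicate 1 (4.63%) or 2 (5.35%). The called core subunits numbered 1 without Flag-IP replicate 2 or any 1 of the HA-IPs, where 3.68% to 7.22% of all genes were called.

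The 19 assembly factors of complex I had a median difference of -0.028, which was 0.041 without Flag-IP replicate 1 and 0.0079 without HA-IP replicate 1. Of the 19, 1 was called in each direction, where 7.10% of all genes were called lower and 5.79% higher. NDUFAF8 was called higher in the HA-IPs by limma (log2 difference 1.06, standard error 0.21, adjusted p = 0.0085) and COA1 lower (-0.28, standard error 0.075, adjusted p = 0.031). TMEM186 had a difference of 0.16 and was not called (adjusted p = 0.47 from limma). When Flag-IP replicate 2 was left out, 0 of the 19 were called by limma, against 3.68% of all genes. Of the 19, 2 had an unadjusted p under 0.05, as did 3516 of all 16834 genes. NDUFAF8 alone was called when Flag-IP replicate 1 or any 1 of the HA-IPs was left out, where 780 to 2009 of all 16834 genes were called.

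Of 27 nuclear genes for the upkeep of mitochondrial DNA and RNA, 5 were called higher in the HA-IPs and 1 lower by limma, where 5.79% and 7.10% of all genes were, and the median difference was 0.075. LRPPRC, which stabilizes mitochondrial mRNAs, read at 19666, 19534 and 22687 normalized counts in Flag-IPs, against 26918, 25579 and 26415 for the HA-IPs. It was 0.35 higher (standard error 0.061, adjusted p = 0.0046 from limma). ELAC2, which cuts the 3′ ends of tRNAs out of the mitochondrial precursor, was 0.38 higher (adjusted p = 0.0095 from limma). FASTKD2, FASTKD5 and GRSF1, RNA-binding proteins of the mitochondrial RNA granules, were 0.32, 0.26 and 0.16 higher (adjusted p = 0.012, 0.019 and 0.041 from limma). REXO2, an exonuclease for short mitochondrial RNAs, had a difference of -0.45 (adjusted p = 0.015 from limma). Of the 27, LRPPRC alone was called when Flag-IP replicate 2 or HA-IP replicate 1 was left out, where 3.68% and 4.63% of all genes were called in either direction. The count was 2 without HA-IP replicate 2 (5.35% of all genes), 4 without HA-IP replicate 3 (7.22%) and 10 without Flag-IP replicate 3 (18.2%). SLIRP, the partner protein of LRPPRC, had a difference of -0.44 and was not called (adjusted p = 0.17 from limma).

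**Figure D5:**
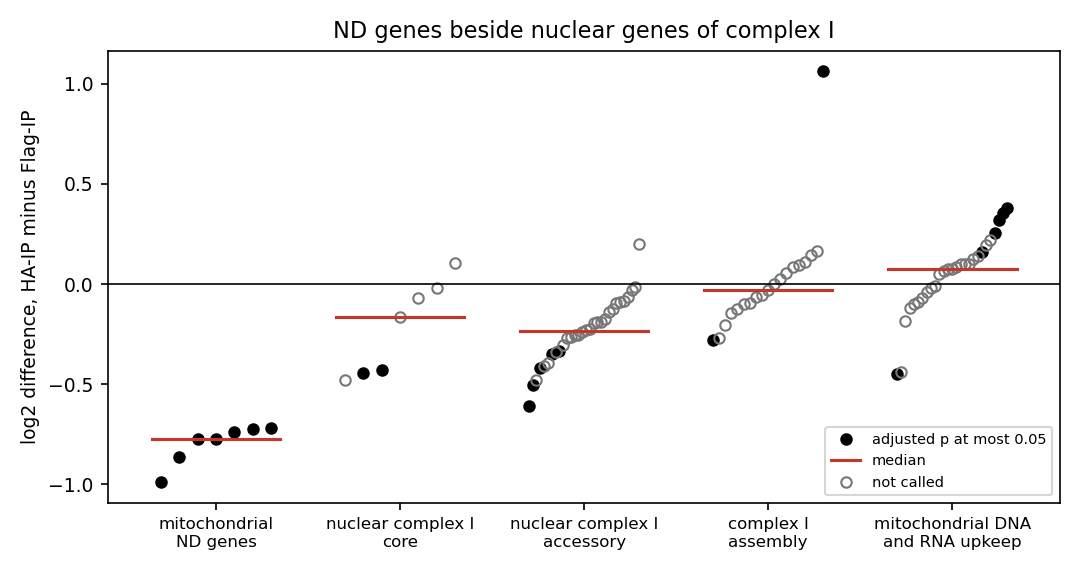
Log2 difference of HA-IP minus Flag-IP for the 7 ND genes, the nuclear core (7) and accessory (30) subunits of complex I, its assembly factors (19) and 27 nuclear genes for the upkeep of mitochondrial DNA and RNA. Filled points passed the limma threshold, and the red lines are medians, at -0.78, -0.16, -0.23, -0.028 and 0.075.

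The pattern of the ND genes over the 6 libraries, taken as the mean of their log2 values, was compared with that of 11851 named genes outside mitochondrial DNA and its nuclear copies, each averaging 100 or more normalized counts over the libraries. The Pearson correlation r over the 6 libraries was highest for RPL37, CNIH4, UBE2E1, RPL9 and HAX1, at 0.998, 0.998, 0.998, 0.998 and 0.997. The libraries share their scaling and depth in all these values, so r is given as a description. RPL37, a protein of the large cytosolic ribosomal subunit, read at 5437, 3562 and 3001 normalized counts in Flag-IPs, against 1855, 2362 and 2767 for the HA-IPs, the order of libraries seen in the ND genes. It fell by 0.75 on the log2 scale (adjusted p = 0.023 from limma), while HAX1, an anti-apoptotic protein, had a difference of -0.21 and was not called (adjusted p = 0.10 from limma). An r of at least 0.95 was reached by 300 genes. Of the 8 members, ND4L was nearest to the mean of the 7 ND genes, of which it is a part, at 0.9996, and MTND2P28 farthest at 0.743.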

How the data were processed

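The authors trimmed paired reads of 150 bases with Trimmomatic 0.36 and mapped them to GRCh38 with STAR 2.5.2b. Their processing notes also name featureCounts of Subread 1.5.2. Per their methods, a filter at 10 reads in 3 samples was applied. They deposited normalized counts, a signal that is each library's read number divided by a DESeq2 size factor. They also deposited their own log2 fold change and adjusted p-value, which were not used. Whole reads were recovered (100% of values within 0.01 of a whole read) and used for depths, shares, edgeR 4.0.16 and DESeq2 1.42.0. Groups were compared with limma 3.58.1 in R 4.3.3 with a pseudocount of 1, since the deposited values are normalized. The count tests on recovered reads served as alternatives. Methods were tested on simulated data.

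The members and gene lists were chosen with earlier results of these data known. Of each list, the rule named the 2 genes with the highest and the 1 with the lowest signed difference at a mean of 100 or more normalized counts, plus all other listed mitochondrial mRNAs and the 5 genes most like the members. Further genes named from the lists, among them SLIRP, the chromosome 1 copies of COX1 and ATP6 and the mitochondrial tRNAs were chosen after their values were seen. A gene that the rule named is not reported here. Sequences came from the hg38 genome and GENCODE 44 and were aligned with biopython 1.88.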

Additional observations from a re-analysis of the deposited data

How the results depend on the processing

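With 3 replicates per group, and 16 to 31 reads per library on MTND2P28, small differences could be missed. No ND gene changed direction in any alternative. With 1 library left out none could, since every Flag-IP lay above every HA-IP. The number of ND genes called was 1 with DESeq2, 1 at an adjusted p of at most 0.01, 0 without the trend of the variance, and 0 to 7 with 1 library left out. The median difference of the 7 ran from -0.95 to -0.53 with 1 library left out. The other scalings, pseudocounts and filters called 6 or 7 of the 7, where quantile normalization left out ND3 (adjusted p = 0.052 from limma). Same-numbered libraries did not deviate together (r of -0.16, 0.031 and -0.31 across 13141 genes for numbers 1, 2 and 3), so the numbers were not taken as pairs. With the replicate number as a block, 1 of the 7 ND genes (ND5) and 1662 of all genes were called. Over all genes 2171 were called, against 188 without the trend, 704 at an adjusted p of at most 0.01, and 620 to 3059 with 1 library left out. The cause of these changes was not tested.

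With 1 library left out, the called genes numbered 1 to 3 of the nuclear core subunits, 2 to 9 of the accessory subunits, 0 to 2 of the assembly factors, 1 to 10 of the genes for mitochondrial DNA and RNA upkeep, 0 to 6 of the other mitochondrial mRNAs (0 with DESeq2), 0 to 1 of the blood markers and 0 to 1 of the HEK293 markers. In the fits with 1 library left out, 620 (3.68%) to 3059 (18.2%) of all 16834 genes were called. Medians ran from -0.33 to -0.11 for the accessory subunits, from -1.01 to -0.50 for the other mitochondrial mRNAs, from -0.057 to 0.041 for the assembly factors, from 0.038 to 0.099 for the upkeep genes (0.022 with the same total per library) and from 0.019 to 0.068 for the HEK293 markers (-0.049 with the same total, against 0.0037 as reported). The fibroblast median was -1.88 with a pseudocount of 10. The difference of the log2 ratio of MTND2P28 to ND2 ran from -0.28 to 0.30 that of ND6 to ND5 from -0.074 to 0.095, that of ND3 to ND4 from 0.025 to 0.30 and that of ND4L to ND4 from -0.18 to -0.060, with 1 library left out.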

Other observations

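Of the tRNA genes of mitochondrial DNA, which lie between the ND genes and the other mRNAs, 15 were listed, and 5 of them were called lower in the HA-IPs by limma, where 7.10% of all genes were, and 0 higher, where 5.79% were. These were MT-TF, MT-TV, MT-TL1, MT-TN and MT-TP, with log2 differences of -0.65, -0.55, -0.60, -0.70 and -0.75 and limma adjusted p-values between 0.021 and 0.043. MT-TL1, the tRNA directly before ND1, read at 771, 536 and 458 normalized counts in Flag-IPs, against 407, 349 and 379 for the HA-IPs. MT-TF, at the start of the plus-strand genes, read at 939, 705 and 513 in Flag-IPs, against 455, 395 and 488 for the HA-IPs. In both tRNAs HA-IP replicate 2 was the lowest library, whereas in all 7 ND genes it was HA-IP replicate 1.

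MT-TH, MT-TS2 and MT-TL2, which lie in a row between ND4 and ND5, were not called. MT-TH had the lowest difference of the 15 (-0.83, standard error 0.35, adjusted p = 0.16 from limma), with 132, 136 and 110.7 normalized counts for the Flag-IP replicates, all above the 33.2, 95.1 and 110.3 for the HA-IP replicates. MT-TL2, the nearest to ND5, read at 161, 249.9 and 161 normalized counts in Flag-IPs, against 92.4, 163 and 206 for the HA-IPs, with overlap between the groups (log2 difference -0.35, adjusted p = 0.44 from limma). MT-TG, directly before ND3, was lowest in HA-IP replicate 1 at 21.9 and highest in HA-IP replicate 3 at 110.3 (log2 difference -0.43, adjusted p = 0.64 from limma). In MT-TL2 and MT-TG, HA-IP replicate 3, and not Flag-IP replicate 1, was among the 2 highest libraries, a pair chosen after their values were seen. With 15 genes this short, reads of neighbouring mRNAs that run into a tRNA cannot be told apart from reads of the tRNA.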
